A study of Mus musculus with 12 samples.

Results

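The immediate early genes examined here were Egr1, Egr2, Egr3, Fos, Fosb, Jun, Junb, Atf3, Ier2 and Ier3, 10 of the 19824 genes measured in whole lung. Their probes were taken by gene name from the array files, which gave 13 of the 41174 probes, and 12 of these were kept for testing. Immediate early genes are transcribed within minutes of a stimulus, without new protein synthesis, when kinase cascades activate factors already bound at their promoters. The EGR proteins are zinc finger transcription factors, and the FOS and JUN proteins pair through leucine zippers to form AP-1. Atf3 encodes a stress-induced factor of the ATF/CREB family and Ier2 a nuclear protein. Ier3 is induced with them, but its product is a stress-response protein linked to cell survival and is not a DNA-binding factor. In lung these genes are known to respond to mechanical stress, oxidants, growth factors and cytokines.

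The arrays came from 12 mice in 3 groups of 4, each mouse giving 1 array of whole-lung RNA. Wild-type mice breathed room air, wild-type mice inhaled cigarette smoke, and Rora mutant mice inhaled cigarette smoke. Rora encodes retinoic acid receptor-related orphan receptor alpha, a nuclear receptor. All mice were labelled male, C57Bl/6 and 12 weeks old, and the smoke groups were exposed on 5 days per week for 4 months, a span longer than the labelled age. The labels name no Rora allele and no cell type in which it acts. Mutant mice in room air were not analysed here, so an effect of genotype alone cannot be told apart from a changed response to smoke.

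Levels are given as log2 of the background-subtracted signal over the 75th percentile of the array, so that a level of 0 equals that percentile and a difference of 1 is a doubling. The 75th percentile ranged from 785.16 to 1312.6 intensity units, and 70.06% to 74.82% of spots were well above background. Rora stood at 1.10 ± 0.04 in wild-type room air, 1.18 ± 0.04 in wild-type smoke and -1.01 ± 0.10 in the mutants (log2 level, mean ± SD, n = 4), so its level followed the genotype labels. Xist, which is transcribed in female cells, stood at 4.04 ± 0.07 in room air against -5.39 ± 2.08 and -4.61 ± 1.26 in wild-type and mutant smoke. The room-air libraries thus went against their male label as a whole group. In both comparisons with room air, smoke and this difference cannot be told apart. The arrays lay on 3 slides of 4, each slide holding all 3 groups. The tissue is bulk lung, in which fewer cells of a type and less RNA per cell cannot be told apart.

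The first comparison set wild-type lung in smoke against wild-type lung in room air, where smoke and the Xist difference move together. Below, a difference for smoke or with smoke names this comparison and no cause. Smoke-exposed wild-type lungs had higher Ier3 and Junb. Ier3 rose 1.55-fold (log2 difference 0.63 ± 0.08 SE, adjusted p = 0.000788) and Junb rose 1.58-fold (0.66 ± 0.16, adjusted p = 0.0412). The other 8 genes did not pass the threshold of 0.05 on the p-value of limma adjusted over all genes. Thus 2 of 10 passed, both higher, where 4.86% of all genes passed and 2.31% passed as higher. All 10 differences were above 0, from 0.04 for Atf3 to 1.16 for Fos, with a median of 0.55 against -0.01 over all genes. The groups did not overlap for Egr2, Junb and Ier3, 3 of 10 genes, where 12.9% of all genes had groups that did not overlap. After normexp background correction 7 of the 10 were above 0, and with slide as a block 9 were, Atf3 being the exception.

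The second comparison asked how smoke-exposed Rora mutants differed from smoke-exposed wild-type mice. Egr3, Junb and Ier3 were lower in the mutants. Egr3 fell by 1.38 ± 0.23 on the log2 scale (adjusted p = 0.00699), Junb fell by 1.00 ± 0.16 (adjusted p = 0.00592) and Ier3 fell by 0.32 ± 0.08 (adjusted p = 0.0351). These were 3 of 10 genes, where 6.04% of all genes passed and 3.56% passed as lower. The 4 mutant values all lay below the 4 wild-type smoke values for 5 genes, Egr1, Egr3, Fosb, Junb and Ier3. Over all genes, 13.4% had groups that did not overlap, counted in both directions. The differences had a median of -0.55 against 0 over all genes, with 8 below 0 and only Jun and Atf3 above it. After normexp correction 7 were below 0, and Egr3 at 0.30 and Fosb at 0.25 were above it.

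The third comparison set the mutants in smoke against wild-type mice in room air, so that genotype, smoke and the Xist difference move together. Egr3 was lower in the mutants by a log2 difference of -1.19 ± 0.23 (adjusted p = 0.00546) and Ier3 was higher by 0.32 ± 0.08 (adjusted p = 0.0165). These 2 of 10 compare with 16.7% of all genes that passed. The groups did not overlap for Egr2, Egr3, Junb and Ier3, 4 of 10 genes against 21% of all genes. The median difference of the 10 genes was 0.11 against -0.01 over all genes. The 3 comparisons share groups of mice and are not independent of each other.

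**Figure D1:**
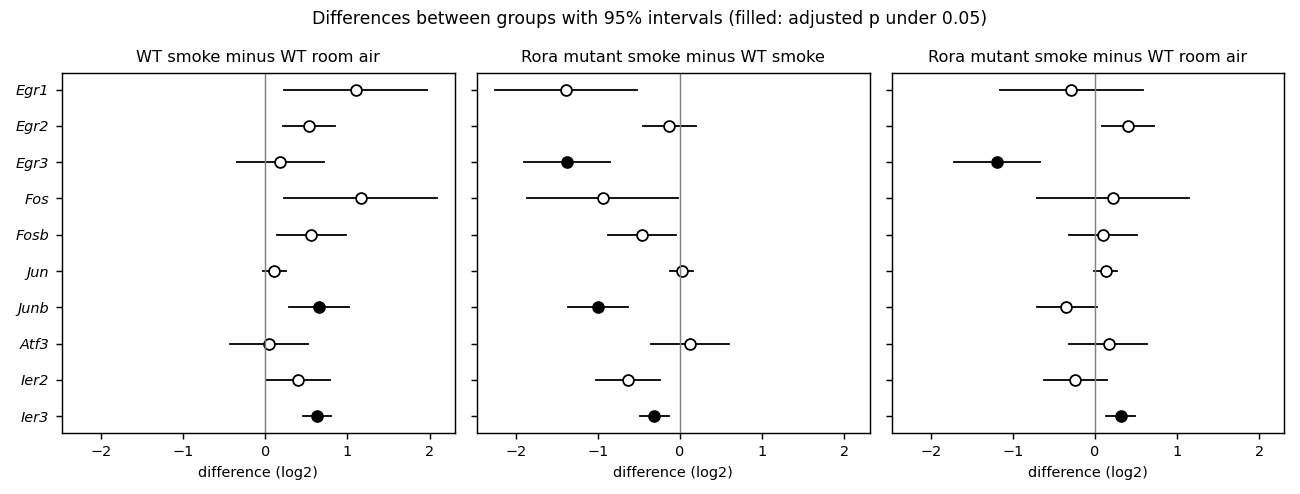
Differences between groups for the 10 genes (x axis, log2; 1 row per gene), 1 panel per comparison; points are limma estimates, lines are 95% intervals, and filled points passed at an adjusted p under 0.05. In the first panel all 10 points lie above 0, and in the second 8 lie below it, with Egr3, Junb and Ier3 filled.

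Among the EGR factors, Egr1 had the widest spread. Egr1 encodes a growth-factor-induced activator of repair and inflammatory genes, and its probe lies at chr18:34990715-34990774 on the plus strand (mm8). Its level was 0.26, 0.15, 0.50 and 0.78 in the room-air mice, 0.91, 0.57, 2.75 and 1.85 in wild-type smoke, and 0.06, -0.23, 0.30 and 0.38 in the mutants, in the order of replicates 1 to 4. The wild-type smoke mice spanned a 4.53-fold range, against 1.55-fold in room air and 1.53-fold in the mutants. No mutant mouse reached the lowest wild-type smoke mouse, while room air overlapped both smoke groups. Wild-type smoke exceeded room air by 1.10 ± 0.38 on the log2 scale, which did not pass (adjusted p = 0.14). The mutants differed from wild-type smoke by -1.39 ± 0.38 (adjusted p = 0.0556; exact permutation p = 0.0286, the smallest that 4 against 4 allows). That difference was -0.84, -1.44 and -2.41 within slides 1, 2 and 3. It passed with slide as a block at -1.59 (adjusted p = 0.0353) and without wild-type smoke replicate 2, the lowest of its group, at -1.71 (adjusted p = 0.0263). It passed in 5 of 25 alternatives in all, which gave -1.71 to -0.98 with adjusted p up to 0.362. Without wild-type smoke replicate 3, the highest, the difference between wild-type smoke and room air was 0.69 (adjusted p = 0.238).

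Egr2, a factor known for its roles in myelination and in restraining T cell activation, was measured by 10 spots per array of a probe at chr10:66937367-66937426 on the plus strand (mm8). It stood at -0.92, -0.87, -0.74 and -0.64 in room air, at -0.28, -0.55, 0.17 and -0.39 in wild-type smoke, and at -0.38, -0.48, -0.56 and -0.15 in the mutants. Every smoke-exposed mouse of either genotype was above every room-air mouse, and the smoke groups overlapped. Smoke differed from room air by 0.53 ± 0.14 in wild types (adjusted p = 0.056) and the mutants differed from room air by 0.40 ± 0.14 (adjusted p = 0.0754). The first difference was 0.50, 0.40 and 0.91 within the slides and passed with slide as a block at 0.57 (adjusted p = 0.0427). It also passed without wild-type smoke replicate 2 (0.63, adjusted p = 0.0399), and in 5 of 25 alternatives in all. Without wild-type smoke replicate 3 it was 0.39 (adjusted p = 0.0909) and after normexp correction 0.41 (adjusted p = 0.581), and neither passed. The difference between mutants and room air passed without wild-type smoke replicate 3 (0.40, adjusted p = 0.0235). That mouse is in neither of these groups and enters only the spread that the 3 groups share in the fit. Between the smoke groups the difference was -0.13 ± 0.14, with a 95% interval from -0.45 to 0.19.

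Egr3, an EGR factor induced in activated lymphocytes, separated the mutants from all wild-type mice. Its tested probe lies at chr14:68817252-68817311 on the plus strand (mm8). The level was -4.88, -4.80, -4.50 and -4.59 in room air, -4.79, -4.87, -3.70 and -4.67 in wild-type smoke, and -5.79, -6.07, -5.55 and -6.14 in the mutants. All 4 mutants lay below all 8 wild-type mice, and the wild-type groups overlapped, differing by 0.18 ± 0.23 (adjusted p = 0.749). The mutants differed from wild-type smoke by -1.0, -1.30 and -2.14 within the 3 slides, and without wild-type smoke replicate 3 the difference was -1.11 (adjusted p = 0.00351). The probe was well above background on 12 of 12 arrays but was dim. Its spots read 68.5 to 76 intensity units in the mutants, 82.4 to 127.1 in wild-type smoke and 85.3 to 103 in room air, over a local background of 42 to 48. With normexp background correction the difference between the smoke groups turned to 0.30 (adjusted p = 0.745). A second Egr3 probe, at chr14:68814100-68814159, was well above background on 1 of 12 arrays, a wild-type smoke array, and was not tested.

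**Figure D2:**
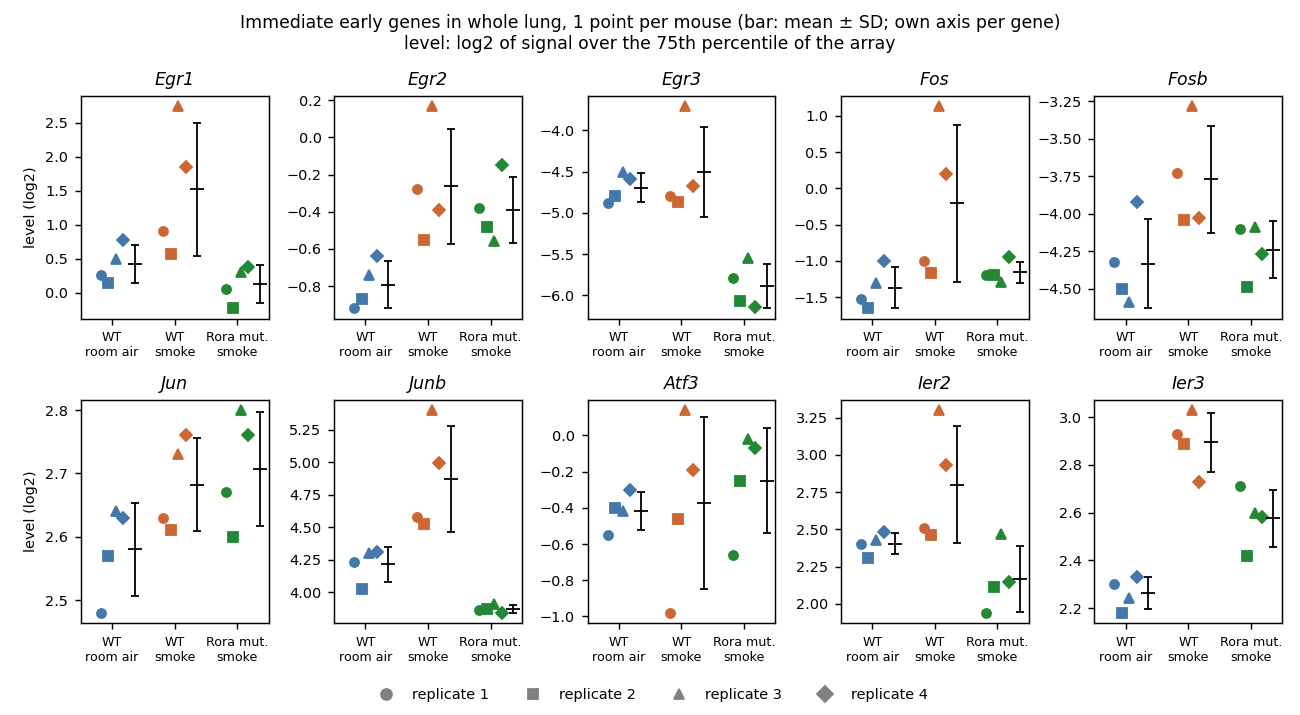
Level of each gene in every mouse (y axis, log2 of signal over the 75th percentile of the array, own scale per gene), by group on the x axis; symbols mark replicates and bars are mean ± SD of 4 mice. The triangle of wild-type smoke replicate 3 is the highest of the 12 points in 9 of the 10 panels, and the mutants lie below all wild-type mice for Egr3 and Junb.

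Of the AP-1 genes, Fos varied most between mice. FOS is the partner of JUN proteins that gives AP-1 its transient activity, and its probe, spotted 10 times per array, lies at chr12:86366053-86366112 on the plus strand (mm8). The level of Fos was -1.52, -1.65, -1.31 and -1.0 in room air, -1.0, -1.17, 1.14 and 0.20 in wild-type smoke, and -1.19, -1.19, -1.29 and -0.95 in the mutants. Wild-type smoke replicates 3 and 4 were above every other mouse, while replicates 1 and 2 lay among the mutants. The range was 4.96-fold in wild-type smoke and 1.26-fold in the mutants. Smoke differed from room air by 1.16 ± 0.41 (adjusted p = 0.144) and the mutants from wild-type smoke by -0.94 ± 0.41 (adjusted p = 0.213), so neither difference passed. Without wild-type smoke replicate 3 these became 0.71 and -0.50.

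Fosb, which encodes a FOS-like partner of JUN, was probed at chr7:18461650-18461709 on the minus strand (mm8) and was dim. Its level was -4.32, -4.50, -4.59 and -3.92 in room air, -3.73, -4.04, -3.28 and -4.03 in wild-type smoke, and -4.10, -4.49, -4.09 and -4.27 in the mutants. The mutants all lay below the wild-type smoke mice, by as little as the gap from -4.09 to -4.04. Neither the difference of 0.56 ± 0.18 for smoke (adjusted p = 0.119) nor that of -0.46 ± 0.18 for the mutants (adjusted p = 0.171) passed. With slide as a block the smoke difference passed at 0.66 (adjusted p = 0.0487).

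Jun, the core AP-1 subunit, varied least. Its 10 spots per array lie at chr4:94541191-94541250 on the minus strand (mm8), and its level stayed between 2.48 and 2.80 over all 12 mice. It was 2.48, 2.57, 2.64 and 2.63 in room air, 2.63, 2.61, 2.73 and 2.76 in wild-type smoke, and 2.67, 2.60, 2.80 and 2.76 in the mutants. All 3 groups overlapped. The difference was 0.11 ± 0.06 for smoke (95% interval -0.03 to 0.25) and 0.02 ± 0.06 for the mutants against wild-type smoke (-0.12 to 0.16).

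Junb, a JUN protein that can oppose JUN on some targets, separated the smoke groups on both of its probes. The brighter lies at chr8:87867087-87867146 and the other at chr8:87867049-87867108, both on the minus strand (mm8) and overlapping in position. On the brighter probe the level of Junb was 4.23, 4.02, 4.30 and 4.31 in room air, 4.58, 4.52, 5.40 and 4.99 in wild-type smoke, and 3.86, 3.87, 3.91 and 3.84 in the mutants. The 3 groups did not overlap, with wild-type smoke highest and the mutants lowest, and the mutants spanned a range of 1.05-fold. Wild-type smoke was 2.01-fold above the mutants, by -0.72, -0.88 and -1.53 (mutant minus wild type, log2) within the 3 slides. Without wild-type smoke replicate 3 this difference was -0.83 (adjusted p = 0.00432). On the second probe it was -0.96 ± 0.15 (adjusted p = 0.00506 over all probes), and the smoke difference was 0.61 ± 0.15 (adjusted p = 0.0417).

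The smoke call of Junb was close to the threshold. The difference was 0.30, 0.73 and 1.10 within the slides, and 0.67 with slide as a block (adjusted p = 0.0504). Leaving out any 1 of 9 arrays, namely the 4 room-air arrays, wild-type smoke replicate 4 or the 4 mutant arrays, gave differences of 0.59 to 0.69 with adjusted p from 0.0537 to 0.106. Without wild-type smoke replicate 3 the smoke difference of Junb was 0.48 (adjusted p = 0.0463). The mutants differed from room air by -0.35 ± 0.16, which did not pass (adjusted p = 0.167), although it did without wild-type smoke replicate 3 (-0.35, adjusted p = 0.0444). That mouse is in neither of these groups, and leaving it out changed only the spread shared by the 3 groups.

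Atf3, probed at chr1:192871283-192871342 on the minus strand (mm8), showed no ordered difference between groups. The level was -0.55, -0.40, -0.42 and -0.30 in room air, -0.98, -0.46, 0.14 and -0.19 in wild-type smoke, and -0.66, -0.25, -0.02 and -0.07 in the mutants. Wild-type smoke held both the lowest and the highest mouse of the 12. The smoke difference was 0.04 ± 0.21 (95% interval -0.43 to 0.52) and that between the smoke groups 0.12 ± 0.21 (-0.35 to 0.59).

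Ier2 gave different results on its 2 probes. On the brighter, at chr8:87549656-87549690 on the minus strand (mm8), the level was 2.40, 2.31, 2.43 and 2.48 in room air, 2.51, 2.46, 3.30 and 2.93 in wild-type smoke, and 1.94, 2.11, 2.47 and 2.15 in the mutants. The highest mutant, at 2.47, overlapped the lowest wild-type smoke mouse, at 2.46. The mutants differed from wild-type smoke by -0.63 ± 0.17 (adjusted p = 0.0521), and by -0.57, -0.59 and -0.99 within the slides. This passed with slide as a block at -0.71 (adjusted p = 0.0325), without wild-type smoke replicate 2 at -0.75 (adjusted p = 0.0377) and without mutant replicate 3 at -0.73 (adjusted p = 0.0403). It passed in 9 of 25 alternatives in all, among them quantile normalization (-0.64, adjusted p = 0.0484), the authors' value table (-0.64, adjusted p = 0.0491) and the mean of both probes (-0.94, adjusted p = 0.000859). With the mean of both probes the smoke difference also passed (0.55, adjusted p = 0.0167).

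The second Ier2 probe, at chr8:87549829-87549887, was dimmer. It read -3.17, -3.40, -3.55 and -3.07 in room air, -2.65, -2.38, -2.74 and -2.60 in wild-type smoke, and -3.51, -3.97, -3.62 and -4.27 in the mutants. Here wild-type smoke lay above all other mice, replicate 3 was its lowest and not its highest mouse, and the mutants overlapped room air. In the fit over all probes its signal rose with smoke by 0.70 ± 0.16 (adjusted p = 0.0334) and fell by 1.25 ± 0.16 in the mutants against wild-type smoke (adjusted p = 0.00177). It also fell by 0.55 ± 0.16 in the mutants against room air (adjusted p = 0.0397). Over all 30191 probes kept, 4.07%, 5.82% and 16.2% passed in these comparisons.

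Ier3, known as a target of NF-kappa B and p53, had a small spread between mice. Its probe lies at chr17:35430636-35430695 on the plus strand (mm8). The level was 2.30, 2.18, 2.24 and 2.33 in room air, 2.93, 2.89, 3.03 and 2.73 in wild-type smoke, and 2.71, 2.42, 2.60 and 2.58 in the mutants. The 3 groups did not overlap, with the mutants between room air and wild-type smoke. The smoke difference was 0.61, 0.63 and 0.79 within the slides, and 0.59 without wild-type smoke replicate 3 (adjusted p = 0.00312). The difference between the smoke groups was -0.21, -0.39 and -0.44 within the slides. That call was lost without any 1 of 6 arrays, wild-type smoke replicates 1, 2 or 3 or mutant replicates 2, 3 or 4 (differences of -0.32 to -0.26, adjusted p from 0.0577 to 0.0908). The call against room air was lost without room-air replicate 2 (0.29, adjusted p = 0.0501).

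The order of the group means was the same in several genes. Wild-type smoke had the highest mean of the 3 groups for 8 of the 10 genes, and Jun and Atf3 had their highest mean in the mutants. Mutants and room air overlapped for Egr1, Fos, Fosb, Jun, Atf3 and the brighter Ier2 probe, and these differences did not pass. The fit shares 1 spread among all 3 groups, wild-type smoke included. For Fos the SD was 0.28 in room air, 0.14 in the mutants and 1.08 in wild-type smoke. A difference that did not pass is therefore not shown to be absent. The lowest group was the mutants for Egr1, Egr3, Junb and Ier2 and room air for the other 6 genes.

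The genes also moved together among mice of one group. Wild-type smoke replicate 3 was the highest of all 12 arrays for 9 of the 10 genes, the exception being Jun, whose highest value was in mutant replicate 3. It exceeded the mean of the other 3 wild-type smoke arrays 3.47-fold for Fos, 3.13-fold for Egr1 and 2.11-fold for Egr3, and 1.04-fold for Jun. Its 75th percentile of 946.12 intensity units and its 72.55% of spots well above background lay within the range of the other arrays. Room-air replicate 4 was the highest of its group for 8 of the 10 genes. How many of all genes were highest in either of these arrays was not counted. Set against its group mean, the median gene stood at 0.51 in wild-type smoke replicate 3, at -0.32 in replicate 2 and at -0.29 in replicate 1 (log2). In room air and in the mutants this median stayed between -0.12 and 0.12, with replicates 1 and 2 below 0 and replicates 3 and 4 above it in both groups. Replicates 1, 2 and 3 of every group lay on slides 1, 2 and 3, so for these arrays replicate number and slide cannot be told apart, and all 4 arrays of slide 3 were above 0. With slide means also removed, the median gene stood at 0.30 in wild-type smoke replicate 3, at -0.19 in replicate 2 and at -0.23 in replicate 1.

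**Figure D3:**
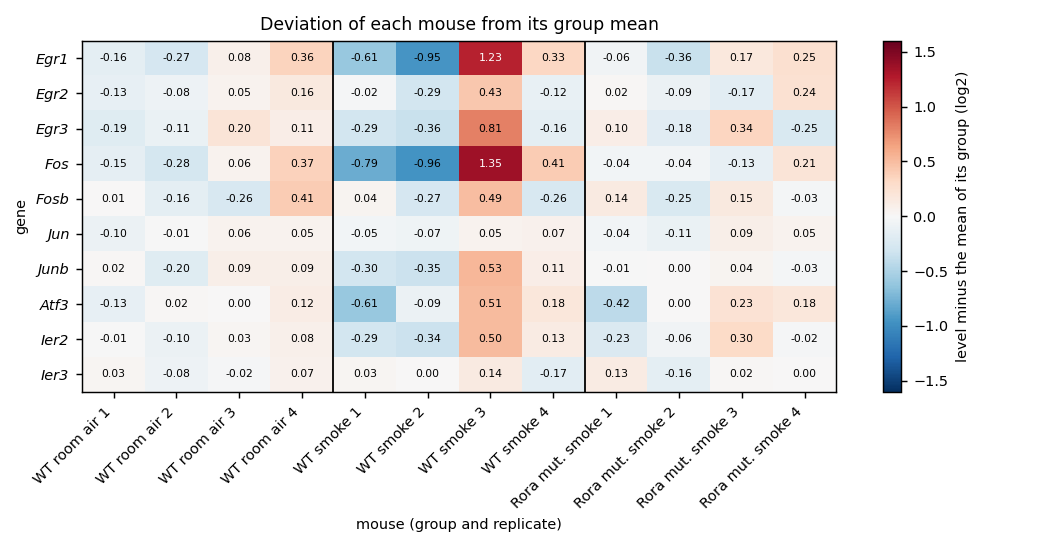
Deviation of each mouse from the mean of its group (colour and printed value, log2), 1 row per gene and 1 column per mouse. All 10 genes are above the group mean in wild-type smoke replicate 3 and none is in wild-type smoke replicate 2, with deviations of 1.35 and -0.96 for Fos.

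The spread between mice of a group was large for most of these genes. The pooled within-group SD (log2) was 0.65 for Fos and 0.61 for Egr1, at percentiles 98.6 and 98.4 of all genes, against a median of 0.12 over all genes. It exceeded that median for 8 of the genes here and for 4 it lay in the highest 10 percent, the others being Egr3 at 0.37 and Atf3 at 0.33. Ier3 at 0.11 and Jun at 0.08 lay below the median. For the genes with 10 spots per array, the SD between spots of one array was 0.06 for Egr2, 0.05 for Fos and 0.05 for Jun, which covers spotting and scanning within an array only. For 9 genes the SD was largest in wild-type smoke.

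Across the 12 arrays, with each group centred on its mean, 44 of the 45 pairs of genes correlated positively, with a median Pearson r of 0.64 and a median Spearman rho of 0.55. The pairs share arrays, and these values are descriptive. Pairs of other genes were not examined, so co-movement of these genes cannot be told apart from movement of whole arrays. Egr1 and Fos were most alike (r = 0.97, rho = 0.92), followed by Fos and Junb (0.96 and 0.83). Without wild-type smoke replicate 3 the median r was 0.39 with 35 pairs positive, and without replicates 3 and 2 of that group it was 0.30 with 33 positive. Those mice were picked for the widest deviations of these same genes, so a lower r without them was built into the choice. With slide means also removed over all 12 arrays, a centring chosen after seeing the data, the median r was 0.57 with 43 pairs positive.

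The genes outside this set whose centred levels were most like its median, among 14198 genes well above background on all arrays, were Mat2a, Ccn1, Nr4a1, Zfp943, Nr4a2 and Klhl28, with r from 0.94 to 0.88 over 12 arrays. Nr4a1, an orphan nuclear receptor and itself an immediate early gene, had r = 0.93 and 0.78 without wild-type smoke replicate 3. Its level was 3.33, 3.42, 3.75 and 3.87 in room air, 2.97, 3.55, 5.29 and 4.65 in wild-type smoke, and 3.07, 3.26, 3.35 and 3.04 in the mutants. Replicates 3 and 4 of wild-type smoke were again above all other mice. Mat2a, which encodes the catalytic subunit of S-adenosylmethionine synthetase, kept r = 0.86 without wild-type smoke replicate 3, from r = 0.94. Its difference for smoke was 0 and for the mutants -0.09, and neither passed. No gene of these 6 passed in any of the 3 comparisons.

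Related genes were counted in 6 lists. Of 24 other immediate early genes measured, 4 rose with smoke and none fell, where 4.86% of all genes passed and 2.31% passed as higher, and the median difference was 0.18. Gadd45g, a stress sensor that activates p38 and JNK signalling, rose by 0.57 ± 0.07 (adjusted p = 0.00103) and the stress kinase Plk3 by 0.50 ± 0.08 (adjusted p = 0.00413). Myc and Klf10 rose by 0.29 and 0.37. In the mutants against wild-type smoke, Gadd45g rose by a further 0.36 ± 0.07 (adjusted p = 0.0167), whereas Ccn2, a matricellular protein gene, fell by 0.60 ± 0.11 (adjusted p = 0.00954) and Ier5l fell by 0.53 ± 0.11 (adjusted p = 0.0198). These 3 of 24 compare with 6.04% of all genes, and the median of this list between the smoke groups was -0.05 against 0 over all genes.

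Among 15 AP-1 and CREB relatives 2 passed with smoke, where 4.86% of all genes did. Maff rose with smoke by 0.51 ± 0.09 (adjusted p = 0.00691) and Batf3 fell by 0.50 ± 0.12 (adjusted p = 0.041). Maff encodes a small MAF protein that pairs with NRF2, and Batf3 a factor needed for cross-presenting dendritic cells. None of the 15 passed limma's test between the smoke groups, with 2 at an unadjusted p under 0.05 and a list median of 0.01. Of Egr4 and the EGR corepressors Nab1 and Nab2, none passed limma's test with smoke and 0 had an unadjusted p under 0.05. Egr4 fell by 1.10 ± 0.21 in the mutants against wild-type smoke (adjusted p = 0.0168), from a mean level of -5.71 to -6.81. Its probe was dim, and its spot on wild-type smoke replicate 4 was an outlier and entered no fit.

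Of 21 feedback inhibitors, 1 rose with smoke, a share near the 4.86% of all genes that passed. This was the MAP kinase phosphatase gene Dusp4, by 0.52 ± 0.07 (adjusted p = 0.00103). In the mutants against wild-type smoke 2 of the 21 fell, where 6.04% of all genes passed and 3.56% passed as lower. Zfp36l2, for an RNA-binding protein that speeds mRNA decay, fell by 0.38 ± 0.10 (adjusted p = 0.0445). Socs3, a cytokine signalling inhibitor, fell by 0.26 ± 0.07 (adjusted p = 0.0456). Of 20 upstream kinases and cofactors of serum response factor, none passed limma's test with smoke and 2 had an unadjusted p under 0.05. The growth factor receptor gene Egfr rose by 0.27 ± 0.06 in the mutants against wild-type smoke (adjusted p = 0.0302), 1 of 20 where 6.04% of all genes passed.

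**Figure D4:**
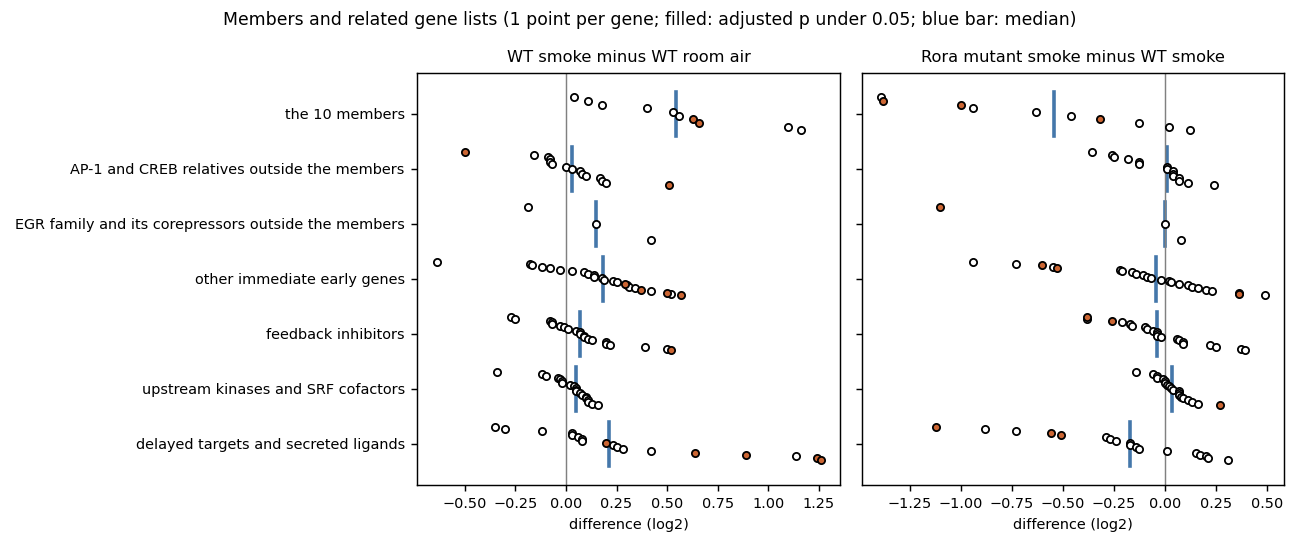
Differences (x axis, log2) of the 10 genes and of 6 related lists (y axis), 1 point per measured gene; filled points passed at an adjusted p under 0.05 and blue bars are medians. The median of the 10 genes, 0.55 with smoke and -0.55 between the smoke groups, lies outside the list medians, which range from 0.03 to 0.22 and from -0.17 to 0.04.

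Promoters are shown for Junb, Ier3 and Fosb, the genes with the smallest p-values between the smoke groups among the 7 of 10 that had an entry in RefSeq's table for GRCm38.p6. Each sequence is the 250 bases before the start of the gene, read 5′ to 3′ on the gene's strand. The window of Junb lies at chr8:84978749-84978998 (minus), that of Ier3 at chr17:35821463-35821712 (plus) and that of Fosb at chr7:19310046-19310295 (minus). Capitals mark the matches to a cAMP response half-site (TGACG), the kappa B site and the EGR site (GCGNGGGCG), searched on both strands.
Junb: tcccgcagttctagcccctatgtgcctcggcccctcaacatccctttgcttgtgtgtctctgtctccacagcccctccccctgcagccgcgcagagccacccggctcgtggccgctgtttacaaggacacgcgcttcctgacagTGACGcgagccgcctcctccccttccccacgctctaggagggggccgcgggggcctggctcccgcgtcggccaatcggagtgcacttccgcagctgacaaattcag
Ier3: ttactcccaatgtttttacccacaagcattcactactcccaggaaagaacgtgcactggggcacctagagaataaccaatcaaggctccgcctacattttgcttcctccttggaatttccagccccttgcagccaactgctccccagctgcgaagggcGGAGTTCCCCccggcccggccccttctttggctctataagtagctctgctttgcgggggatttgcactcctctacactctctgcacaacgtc
Fosb: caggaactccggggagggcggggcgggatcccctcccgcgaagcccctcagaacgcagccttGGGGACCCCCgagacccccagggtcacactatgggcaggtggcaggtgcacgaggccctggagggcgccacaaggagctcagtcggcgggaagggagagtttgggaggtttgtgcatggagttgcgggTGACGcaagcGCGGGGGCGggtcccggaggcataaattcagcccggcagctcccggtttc
The 7 genes had 11 windows in the table, 5 of them Egr2's, and a gene was counted once if any of its windows held the motif. The half-site was found in 5 of the 7 genes, Egr2, Fos, Fosb, Junb and Atf3, against 19.8% of 27025 genes (17.8% of 32851 windows of this length). A kappa B site was found in Fos, Fosb and Ier3, against 4.46% of genes. The EGR site was found in Fosb (5.33% of genes) and the CArG box, which serum response factor binds, in Egr2 (1.62%). In none of the 11 windows did the ROR half-site AGGTCA occur (15.8% of genes), nor the AP-1 site TGANTCA (7.82%), the full response element TGACGTCA (1.77%), which contains the half-site, or the STAT site TTCNNNGAA (8.13%). These matches describe letters only, in the windows the table lists for each gene.

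Markers of lung cell types moved in the same comparisons. Between the smoke groups, 5 of 5 measured alveolar macrophage markers passed as higher in the mutants, where 6.04% of all genes passed in either direction. The sum of their linear signal, relative to the 75th percentile, was 109 to 170 in the mutants, 79.8 to 93.1 in wild-type smoke and 78.4 to 85.1 in room air. That sum was mostly Chil3, at a mean log2 level of 6.90 in the mutants and 6.16 in wild-type smoke. Of 5 mast cell markers 4 were higher, Cpa3, Mcpt4, Tpsb2 and Cma1, by 1.22, 0.98, 0.78 and 0.75 (log2), and Kit differed by 0.15 (adjusted p = 0.348). The mean log2 level of these 5 markers was -2.69 to -2.49 in the mutants, -3.54 to -3.29 in wild-type smoke and -3.33 to -2.79 in room air. Their linear sums, 4.92 to 5.94 against 4.27 to 5.16 in the smoke groups, were mostly Kit. None of 8 T cell markers passed limma's test and 0 had an unadjusted p under 0.05, with sums of 2.24 to 3.60 against 2.45 to 3.19. With smoke in wild types, 3 of 6 alveolar type 2 cell markers passed as lower, Sftpa1, Sftpd and Lamp3, where 4.86% of all genes passed in either direction. The sums were 876 to 1070 in room air and 706 to 1160 in smoke, and were mostly Sftpc, which differed by 0.04 (adjusted p = 0.932). None of 5 smooth muscle markers passed limma's test, but 4 had an unadjusted p under 0.05, with a median difference of -0.29 and sums of 52 to 55.4 in room air against 35 to 47.7 in smoke. All 6 alveolar type 2 markers were well above background on every array, as the lung label requires. The part of these shifts in the differences of the immediate early genes was not tested.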

How the data were processed

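Total RNA from the whole lung of 12 mice was labelled with Cy3 from 100 ng and hybridised to single-colour Agilent arrays, per the labels and file headers. The deposited intensity of each spot is the processed signal of Agilent Feature Extraction 9.5.3.1, with background subtracted and no normalization between arrays, per the file headers. Other columns used were the deposited flags of 0 or 1 for spots well above background, saturated or outlying. The deposited value table of the authors is on a log2 scale and has the same quantiles on every array (median 6.79). It correlated with log2 of the processed signal on each array, and how it was made is not given in the sources used here; it served as an alternative.

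Of 43379 spots for 41174 probes, outlier spots were left out, replicate spots were averaged on the log2 scale, and the log2 75th percentile of the array was subtracted. Probes had to exceed background clearly, by the deposited flag, on 4 or more of the 12 arrays and to have values on 3 or more per group, which left 30191 probes. The brightest probe stood for each of 19824 genes. All 12 kept probes of the 10 genes were well above background on 12 arrays, and none was saturated. Probe positions are on mm8, per the file headers. limma 3.58.1 in R 4.3.3 (with the data.table package, version 1.17.8) fitted a mean per group over all 12 arrays, and p-values were adjusted by Benjamini-Hochberg over all genes of a comparison, with a threshold of 0.05. Errors of differences are standard errors. Exact permutation tests were two-sided. The script was tested on simulated data. Figures were drawn with matplotlib 3.10.9 (Python 3.11.15, pandas 2.3.3). The number of arrays limits the precision.

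All 10 genes were named in every comparison. Of each related list, at most 4 genes that passed were named, by smallest p. The genes, lists and tests were chosen with earlier results of these data known. Labels gave the groups and replicate numbers and state no pairing. Deviations of mice with the same number correlated at -0.097 to 0.224 (median 0.028, 4 of 12 pairs over 0.1). Other pairs of mice from different groups correlated at -0.201 to 0.205 (median -0.016, 4 of 36 pairs over 0.1). Numbers were not taken as pairs, because the labels state no pairing. Numbers 1, 2 and 3 coincide with slides 1, 2 and 3 in every group. The alternatives were other scales, background corrections, filters, probe rules, blocks and leaving out each array.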

Additional observations from a re-analysis of the deposited data

How the results depend on the processing

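Over 25 alternatives, 692 of 750 results of single genes and comparisons kept their side of the threshold. Of the rest, 27 lost a call, 29 gained one and 2 called differences changed sign. The 692 include differences without a call that changed sign. Examples are Egr3 for smoke, at 0.18 and as low as -0.22, and Fosb between the smoke groups, at -0.46 and as high as 0.25. Both called differences that changed sign were Egr3 under normexp correction. They became 0.30 between the smoke groups (adjusted p = 0.745) and 0.08 for mutants against room air (adjusted p = 0.966). That setting gave 0 calls among the 10 genes in each comparison, with 6, 4 and 2 at an unadjusted limma p under 0.05. Over all genes it gave 53 against 963 for smoke (75.5% higher against 47.5%), 28 against 1198 between the smoke groups and 181 against 3312 for mutants against room air. It also shifted the median of all genes between the smoke groups to 0.10. The cause was not tested.

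For smoke, 1 of the 10 genes passed without a filter on dim probes and 1 with only the 2 groups compared. With 3 passed came the median scale, probes well above background on all 12 arrays, the mean of all probes, an intensity trend and the slide block. Between the smoke groups 5 passed with probes well above background on all 12 arrays, with an intensity trend and with slide as a block; 2 passed on the median scale, without a filter and with only the 2 groups compared. For mutants against room air 4 passed on the median scale and with only the 2 groups compared, and 3 with the mean of all probes and with the intensity trend. Leaving out 1 array gave 1 to 3, 2 to 4 and 1 to 4 genes. Over all genes, no filter gave 564 for smoke and 688 between the smoke groups, only the 2 groups compared gave 745 between the smoke groups, and leaving out 1 array gave 555 to 967, 583 to 1147 and 2240 to 3226. The every-probe fit gave 1230, 1756 and 4906 probes, and the slide and replicate blocks 685 and 655 genes for smoke. On the median scale the share of calls that were higher was 62.8% for smoke, 56.5% between the smoke groups and 67.9% for mutants against room air, against 47.5%, 41.1% and 39.9%. With the replicate number as a block, 2, 5 and 2 of the 10 genes passed, Egr1 (-1.39, adjusted p = 0.0263) and Ier2 (-0.63, adjusted p = 0.0239) joining between the smoke groups. The numbers were not taken as pairs, and numbers 1 to 3 coincide with the slides. Junb lost its smoke call in 13 alternatives and Ier3 its call between the smoke groups in 10. Egr3 and Fosb were dim, which limits their precision.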

Other observations

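The last list joins secreted ligands and genes named as delayed targets, meaning transcribed after the immediate early factors have been made. Its genes were listed by name, and whether any of them followed those factors here was not tested. Of 18 delayed targets and secreted ligands measured, 5 rose with smoke in wild types and none fell, with a median of 0.22. Over all genes 4.86% passed and 2.31% passed as higher. Edn1, which encodes the vasoconstrictor endothelin, rose by 1.26 ± 0.12 (adjusted p = 0.000165). Ptgs2, the inducible cyclooxygenase gene, rose by 1.24 ± 0.14 (adjusted p = 0.000468). Hmox1, the haem oxygenase gene, rose by 0.89 ± 0.10 (adjusted p = 0.000835) and Thbs1, a matricellular gene, by 0.64 ± 0.11 (adjusted p = 0.00598).

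In the mutants against wild-type smoke 3 of the 18 fell and none rose, where 6.04% of all genes passed and 3.56% passed as lower. Mmp3, for the metalloproteinase stromelysin, fell by 1.12 ± 0.10 (adjusted p = 0.000189), Mmp9, for a gelatinase, fell by 0.51 ± 0.08 (adjusted p = 0.00626) and Ptgs2 fell by 0.56 ± 0.14 (adjusted p = 0.0383). Edn1, at a mean of 1.73 in the mutants and 1.72 in wild-type smoke, differed by 0.01 ± 0.12.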
